A study of Capra hircus with 2 samples.

Results

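The genes described here are the nuclear genes of oxidative phosphorylation, followed across the cell types of the fetal goat ovary. Members were the features whose symbol in the deposited gene list begins with NDUF, UQCR, ATP5, SDHA, SDHB, SDHC or SDHD, or with COX followed by a digit from 4 to 8 and a letter. The rule found 51 of 27271 features and used no measured value. Complex I had 25 members and 4 assembly factors, complex II had 2 members and 2 assembly factors, and complex III had 4 members. Complex IV had 8 members, complex V had 5, and ATP5IF1, the inhibitor of complex V, completed the set. Other subunits, among them SDHA, SDHB and COX4I1, have no feature under those symbols and were not analysed here. Of all features, 10655 carry only an identifier in place of a symbol. A sum per complex therefore covers only the subunits that the rule could find by symbol.

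Oxidative phosphorylation takes place in the inner mitochondrial membrane, where complexes I and II feed electrons from NADH and succinate to ubiquinone. Complex III passes them on to cytochrome c, complex IV passes them to oxygen, and complex V makes ATP from the proton gradient that the pumping complexes build. Most subunits are encoded in the nucleus and imported, while a small core set is encoded by mitochondrial DNA. Oocytes gain many mitochondria as they grow, and they are known for relying on mitochondrial ATP and on pyruvate supplied by neighbouring somatic cells.

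The cells came from ovaries of female goat (Capra hircus) fetuses at the stages labelled E85 and E125, where E stands for embryonic day, and were sequenced with a droplet-based 3' kit. There was 1 library per stage, and no treatment or genotype is named in the labels. The labels do not say how many animals were pooled, and their protocol mentions testes although tissue is given as ovary and sex as female. With no replicate, a difference between stages has no animal-to-animal spread beside it. No test was run, and every value describes these 2 libraries.

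The E85 library held 4397 barcodes and 17748948 unique molecular identifiers (UMIs, each marking 1 captured transcript), and the E125 library held 8346 barcodes and 49692252 UMIs. After filtering, 3825 and 7023 cells remained, with median depths of 3102 and 3193 UMIs, and 13 barcode sequences occurred in both libraries. Cells were clustered again and named from marker genes, and a class was compared between stages where both libraries held 40 or more cells. The 6 compared classes, with E85 and E125 cell numbers, were germ-cell-like (49 and 129), pregranulosa-like (243 and 588) and surface-epithelium-like (333 and 219), together with stromal-like (2704 and 4801), endothelial-like (85 and 755) and myeloid-like (53 and 100). Germ-cell-like cells carried 9 of 9 germ cell markers found in the files at a summed 11868 and 14880 CPM (UMIs of a gene scaled to 1000000 UMIs of the class), against at most 482 and 395 CPM in any other class. The surface-epithelium-like class rested on 3 detected markers. Pregranulosa markers summed to 575 CPM in pregranulosa-like cells at E85, not far above the 413 CPM of endothelial-like cells. At E125 they summed to 2673 CPM, against 366 CPM at most in the other compared classes and 1188 CPM in the 74 glia-like cells. Stromal-like and pregranulosa-like cells of the 2 stages fell mostly into different clusters, so stage and cluster cannot be told apart there.

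The members together took a larger share of the transcripts in germ-cell-like cells than in any other class at both stages. They held 1.85% of UMIs there at E85 (95% interval 1.83 to 1.87, exact binomial, for counting error only, as are all intervals below) and 1.74% at E125 (1.74 to 1.75). Pregranulosa-like cells, the somatic partners of the oocyte, came next with 1.23% and 0.900%. Surface-epithelium-like cells were at 1.06% and 0.866%, stromal-like cells at 0.975% and 0.678%, endothelial-like cells at 0.899% and 0.690%, and myeloid-like cells at 0.887% and 0.613%. At E85 the intervals of endothelial-like cells (0.875 to 0.924) and myeloid-like cells (0.860 to 0.915) overlapped. At E125 stromal-like (0.674 to 0.682) and endothelial-like cells (0.684 to 0.697) lay side by side without overlap. Shares cannot tell fewer transcripts of these genes per cell from more transcripts of others. Among classes below the size for comparison, perivascular-like cells were at 1.07% and 0.756% and lymphoid-like cells at 0.884% and 0.568%. The 74 glia-like cells at E125 were at 0.786%.

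**Figure D1:**
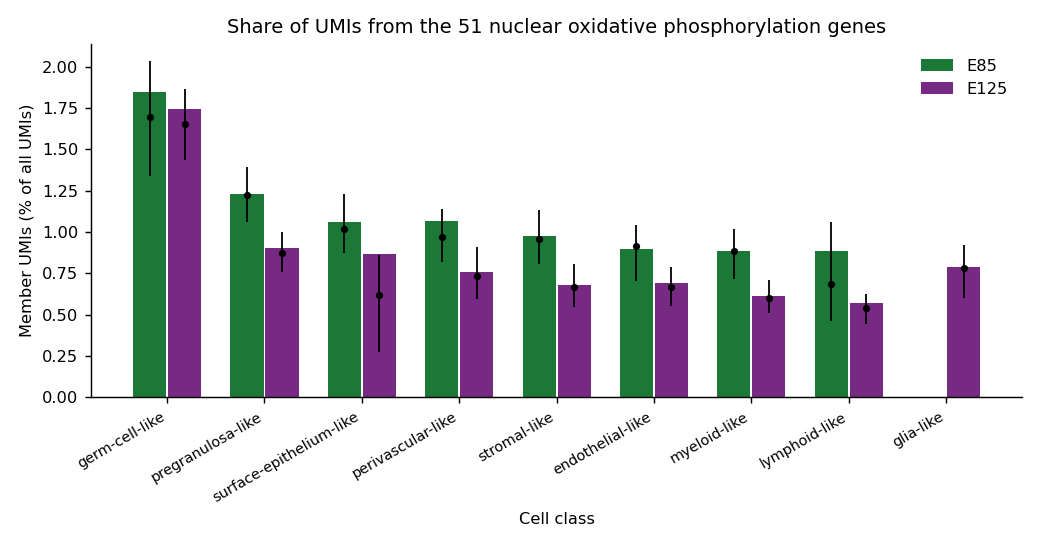
Share of all UMIs that came from the 51 members, in percent, for each cell class (horizontal axis) at E85 (green) and E125 (purple). Bars give the share of the summed UMIs, and black points with lines give the median and quartiles over single cells; germ-cell-like cells have the tallest bars at both stages, 1.85% and 1.74%. The 2 glia-like cells at E85 are not drawn.

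By single cells, germ-cell-like cells again came first at both stages. The median germ-cell-like cell had 1.69% of its UMIs from members at E85 (quartiles 1.34 to 2.04) and 1.65% at E125 (1.43 to 1.86), while the median stromal-like cell had 0.960% and 0.669%. Surface-epithelium-like cells at E125 were uneven, with a median of 0.621% and quartiles from 0.276 to 0.862, below the 0.866% of their pooled UMIs and below the medians of stromal-like and endothelial-like cells. Those cells also had a median depth of 1816 UMIs and a median of 11.5% mitochondrially encoded UMIs per cell, against 6025 UMIs and 8.31% at E85. The part of depth in that result was not tested.

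Germ-cell-like droplets ranged widely in depth, and the share was above that of every somatic class in large and small ones. Droplets of 20000 or more UMIs numbered 22 at E85 and 71 at E125. Members took 1.86% and 1.75% of their UMIs, with medians of 974.5 and 2182 member UMIs per droplet. The smaller droplets, 27 and 58, were at 1.57% and 1.58%. Stromal markers summed to 121 and 163 CPM in germ-cell-like cells, against 6929 and 8310 CPM in stromal-like cells.

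Across the 6 classes the member share and the share of the 13 mitochondrially encoded genes did not order the classes alike. Mitochondrially encoded transcripts took 5.22% of germ-cell-like UMIs at E85 and 2.50% at E125, and 5.56% and 2.87% of pregranulosa-like UMIs. Surface-epithelium-like cells had the highest such shares, 8.68% and 8.81%, with a member share near the middle. Over the 6 classes with enough cells at E85 the correlation of the 2 shares was 0.06, and over 9 classes at E125 it was -0.16, given as a description of points that share a library.

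The comparison of stages asked how members differed between E85 and E125 within a class. By the share of all UMIs, the summed members were lower at E125 in all 6 classes, although the direction in germ-cell-like cells turned with the scaling. The ratio of E125 to E85 was 0.695 in stromal-like cells (95% interval 0.688 to 0.701), 0.691 in myeloid-like cells (0.660 to 0.724) and 0.732 in pregranulosa-like cells (0.720 to 0.743). It was 0.768 in endothelial-like cells (0.746 to 0.790), 0.818 in surface-epithelium-like cells (0.802 to 0.835), where a mean over cells gave 0.533, and 0.945 in germ-cell-like cells (0.933 to 0.957). The germ-cell-like value turned to 1.13 when the 2 libraries were scaled by edgeR's TMM or by DESeq2's size factors, so no direction is read for it. In the 5 somatic classes the ratio stayed below 1 under each alternative tried. In stromal-like cells, the 3 clusters of at least 15 cells at E85 ran from 0.949% to 1.02% and the 7 at E125 from 0.642% to 0.751%. These ranges did not overlap, but clusters of 1 library are not replicates of a stage.

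Counted gene by gene, members were measured in a class where both libraries together gave 50 or more UMIs, and called at a 2-fold ratio of CPM. No member was 2-fold higher at E125 in any of the 6 classes, where 13.3% to 19.8% of all measured features were. With TMM NDUFS7 passed the limit in germ-cell-like cells, at 2.02, and with a mean over cells 4 members did, as did 2957 of 8988 features. In germ-cell-like cells, 0 of 45 members were higher (19.8% of all measured features) and 6 were lower (18.3%). In pregranulosa-like cells 0 of 43 were higher (14.5%) and 6 lower (10.5%), and in surface-epithelium-like cells 0 of 44 were higher (13.3%) and 6 lower (10.5%). Stromal-like cells had 0 of 45 higher (18.1%) and 13 lower (10.9%). Endothelial-like cells had 0 of 42 higher (19.3%) and 8 lower (7.42%), and myeloid-like cells had 0 of 37 higher (16.4%) and 9 lower (9.01%).

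The share of lower members was thus above that of all features in stromal-like, endothelial-like and myeloid-like cells, and below it or closer to it in the other 3. For surface-epithelium-like cells this depends on the setting. There 21 of 44 members were lower as a mean over cells, against 14.0% of all features, and 17 of 38 with variable genes pooled, against 12.3%. The median member log2 ratio was -0.21 in germ-cell-like cells, where all measured features had -0.07, and -0.56 against -0.05 in pregranulosa-like cells. It was -0.41 against 0.06 in surface-epithelium-like cells and -0.74 against -0.01 in stromal-like cells. Endothelial-like cells had -0.48 against 0.17, and myeloid-like cells -0.57 against 0.13. TMM moved all ratios of a class together, by 0.26 in germ-cell-like, 0.19 in pregranulosa-like and -0.17 in myeloid-like cells on the log2 scale, and the germ-cell-like member median then became 0.05. Of features called in either direction, the higher ones made up 51.9% in germ-cell-like, 58.2% in pregranulosa-like and 64.5% in myeloid-like cells, and 67.7%, 71.0% and 51.2% with TMM. Averaging over cells gave 64.4% in germ-cell-like cells, and moved surface-epithelium-like cells from 56.0% to 67.6%. TMM turned the direction of 7 of 45 members in germ-cell-like and 7 of 43 in pregranulosa-like cells, and of 4 or fewer in each other class.

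Of the 37 members measured in all 6 classes, 20 had a ratio below 1 in every class, where 21% of the 1802 features measured in all 6 did. Under TMM 16 of the 37 did. None was above 1 in every class, although 1 was with DESeq2's size factors. At least 2-fold lower in every class were 3 members, COX8A, UQCRC1 and UQCRFS1, against 1.5% of the 1802 features. With TMM or DESeq2's size factors COX8A and UQCRFS1 were still so, and UQCRC1 fell short in germ-cell-like cells, at a ratio of 0.548 or 0.543.

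**Figure D2:**
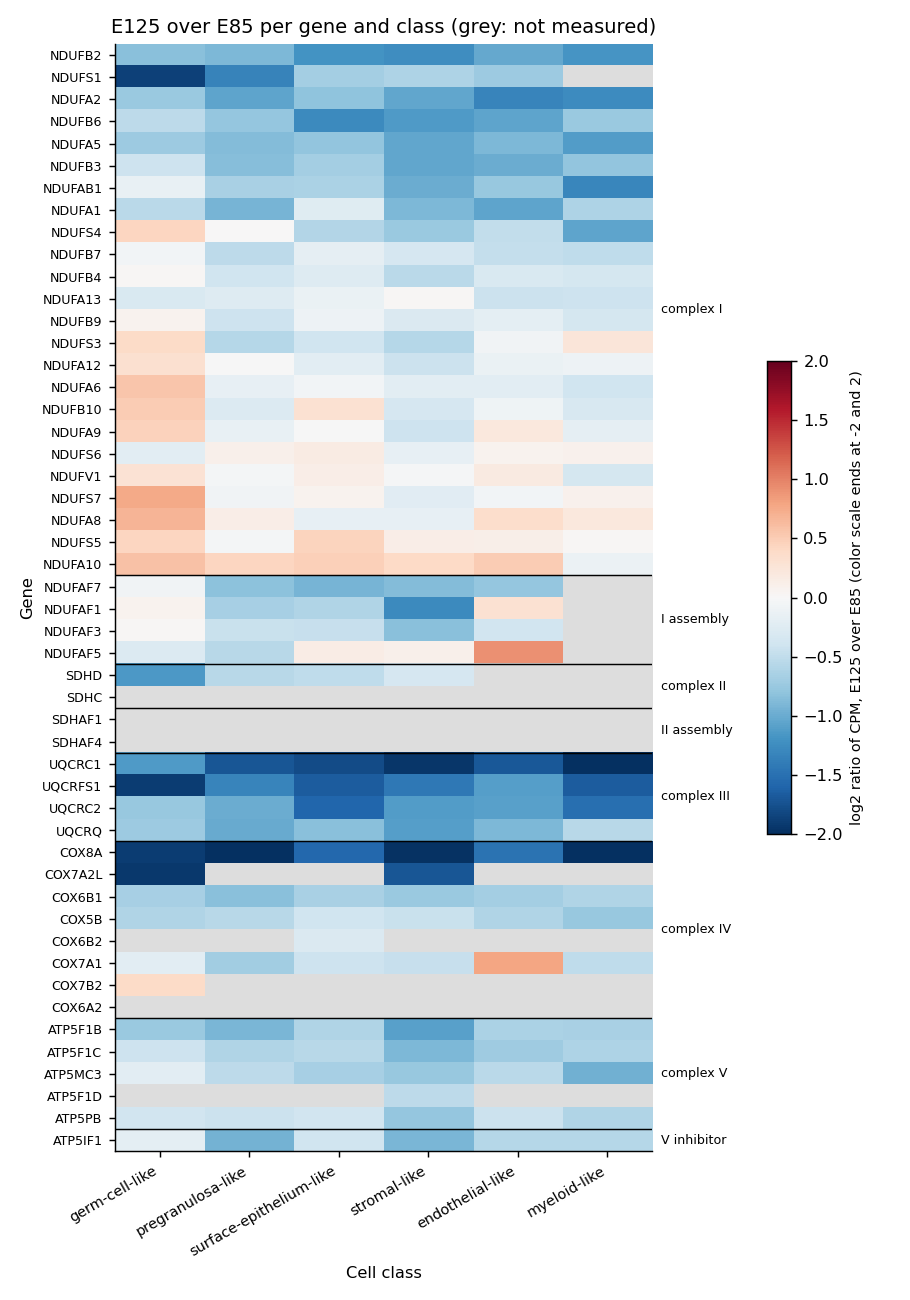
The log2 ratio of CPM at E125 over E85 for members (rows, grouped by complex) in the 6 compared classes (columns), blue where lower at E125, red where higher and grey where fewer than 50 UMIs were measured. The rows of complex III and COX8A are blue in every column, while NDUFA10 is red in 5 of 6.

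Complex I, the NADH dehydrogenase that starts the chain, had a ratio nearer 1 than complexes III, IV and V in every class, except in germ-cell-like cells with TMM or DESeq2's size factors. Its summed E125 to E85 ratio was 1.09 in germ-cell-like cells and between 0.776 and 0.935 in the somatic classes, highest in surface-epithelium-like and lowest in myeloid-like cells. As a mean over cells, the ratio of complex I was instead lowest in surface-epithelium-like cells, at 0.616. The median log2 ratio of its measured members was 0.07 in germ-cell-like cells, where 14 of 25 were above 1, and -0.42 in stromal-like cells, where 4 of 25 were. NDUFS5, an accessory subunit, was at 712 CPM in stromal-like cells at E85 and 777 at E125, and at 828 and 810 CPM in pregranulosa-like cells. It went from 680 to 914 CPM in germ-cell-like and from 710 to 968 CPM in surface-epithelium-like cells. Its ratios lay between 0.978 and 1.36, and those near 1, in pregranulosa-like and myeloid-like cells, turned to 1.12 and 0.904 with TMM.

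NDUFA10, an accessory subunit, was higher at E125 in 5 of 6 classes. It went from 121 to 181 CPM in germ-cell-like cells, with a 95% interval of the ratio of 1.29 to 1.74, and from 82.4 to 111 CPM in pregranulosa-like cells, a ratio of 1.34 (1.11 to 1.63). In myeloid-like cells it was at 60.1 and 55.2 CPM, a ratio of 0.918 with an interval of 0.528 to 1.61 that holds 1.

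A group of complex I members had higher levels at E125 than at E85 in germ-cell-like cells, each below 2-fold. NDUFS7, a core iron-sulfur subunit, was at 353 and 594 CPM there, a ratio of 1.68 (1.54 to 1.84), against ratios of 0.852 to 1.06 elsewhere. NDUFA8 was at 500 and 799 CPM (1.60, 1.49 to 1.72), and NDUFA6 at 255 and 373 CPM (1.46, 1.32 to 1.62). NDUFB10 was at 853 and 1207 CPM in germ-cell-like cells, but at 394 and 313 CPM in stromal-like cells. NDUFA9, NDUFA12, NDUFS3, NDUFV1 and NDUFS4 also had germ-cell-like ratios between 1.23 and 1.38. In somatic classes some of these were above 1 as well, NDUFA8 in 3 of 5, and whether the classes differ in these ratios was not tested.

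Other complex I subunits were lower. NDUFS1, the largest iron-sulfur subunit, was at 31.8 CPM at E85 and 8.69 at E125 in germ-cell-like cells, 3.66-fold lower (2.55 to 5.22), and at 28.5 and 11.3 CPM in pregranulosa-like cells, 2.52-fold lower (1.71 to 3.66). In stromal-like cells it was 1.53-fold lower, below the 2-fold limit. The accessory subunit NDUFA2 was 2-fold lower or more in 4 of 6 classes, with 2.50-fold (2.06 to 3.03) the largest, in endothelial-like cells, from 229 to 91.3 CPM. Its 2.07-fold and 2.05-fold values in pregranulosa-like and stromal-like cells fell under 2-fold in some alternatives. NDUFB2 was lower in 4 classes, and NDUFB6 in 3, both by at most 2.42-fold. NDUFA5 was at 83.6 and 40.7 CPM in stromal-like cells and was 2-fold lower there and in myeloid-like cells, while NDUFA1 passed 2-fold in endothelial-like and NDUFB3 in stromal-like cells. With TMM the NDUFA1 ratio was 0.502, and in stromal-like cells those of NDUFA5 and NDUFB3 were 0.504 and 0.506, so these calls ended, as did those of NDUFB2 and NDUFB6 in endothelial-like cells. NDUFB7 and NDUFA13 had ratios from 0.697 to 1.02 over the classes, and NDUFS6 from 0.865 to 1.12.

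NDUFAF1, NDUFAF3, NDUFAF5 and NDUFAF7, which help to build complex I, had a summed ratio of 0.995 in germ-cell-like and 0.578 in stromal-like cells. NDUFAF1 was at 36.4 and 15.1 CPM in stromal-like cells, the one 2-fold call among them. In the 5 classes where it was measured, NDUFAF5 had ratios from 0.679 in pregranulosa-like to 1.88 in endothelial-like cells, the latter with an interval of 0.839 to 5.24.

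Complex II links the citrate cycle to the chain, and its membrane anchors SDHC and SDHD were analysed. SDHD was near the detection limit, at 9.19 and 4.15 CPM in germ-cell-like cells (15 and 42 UMIs), 2.21-fold lower with a wide interval of 1.14 to 4.08, and at a ratio of 0.542 with TMM, short of the limit. In stromal-like cells it was at 15.7 and 12.5 CPM. In the 6 compared classes SDHC was at or below 6.12 CPM, and the assembly factors SDHAF1 and SDHAF4 at or below 7.96 CPM, so no ratio was formed for these 3. In glia-like cells at E125 SDHC was at 10.7 CPM.

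By the sum of its 4 members, complex III, the cytochrome bc1 complex, was lower at E125 in every class. Its summed E125 to E85 ratio was 0.413 in myeloid-like, 0.418 in stromal-like, 0.443 in surface-epithelium-like, 0.449 in pregranulosa-like, 0.465 in endothelial-like and 0.553 in germ-cell-like cells. Under TMM, DESeq2's size factors, totals without mitochondrially encoded and ribosomal protein genes, and the mean over cells, the ratio stayed below 1 in all 6 classes, as it did for complexes IV and V. The mean over cells put surface-epithelium-like cells lowest for complexes III, IV and V, at 0.280, 0.357 and 0.464. CYC1, another gene of complex III, has no UQCR symbol and is not in the sum. It was at least 2-fold higher at E125 in germ-cell-like, pregranulosa-like, surface-epithelium-like, stromal-like and endothelial-like cells.

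UQCRC1, a core subunit, was at 281 and 128 CPM in germ-cell-like cells at E85 and E125, at 109 and 33.2 CPM in pregranulosa-like cells, and at 107 and 30.8 CPM in surface-epithelium-like cells. It was at 90.9 and 23.6 CPM in stromal-like, 114 and 35.1 CPM in endothelial-like, and 107 and 20.2 CPM in myeloid-like cells. E85 was the higher stage in every class. By these values germ-cell-like cells at E125 were above all 5 somatic classes at E85. The nearest, endothelial-like cells at 114 CPM, was close, and that gap was not tested. The folds lower ran from 2.19 (1.97 to 2.44) in germ-cell-like to 5.28 (2.70 to 11.3) in myeloid-like cells, the last resting on 48 and 11 UMIs.

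UQCRFS1, the Rieske iron-sulfur protein, was at 126 and 33.7 CPM in germ-cell-like cells, 141 and 56.5 CPM in pregranulosa-like cells and 82.8 and 30.8 CPM in stromal-like cells. Unlike UQCRC1, it was not highest in germ-cell-like cells. Its fold lower was 3.75 (3.14 to 4.47) in germ-cell-like cells and 2.14 (1.55 to 2.92) in endothelial-like cells, which bounded the range. In pregranulosa-like cells its ratio was 0.402, and 0.552 under the stricter cell filter, which left 23 such cells at E125.

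UQCRC2, the other core subunit, was 2-fold lower in 4 of 6 classes and 1.69-fold lower in germ-cell-like cells, from 232 to 137 CPM. UQCRQ, a small subunit that binds ubiquinone, was at 1036 and 626 CPM in germ-cell-like cells and 290 and 136 CPM in stromal-like cells. It was 2.14-fold lower (2.02 to 2.27) in stromal-like cells and 1.65-fold lower (1.57 to 1.74) in germ-cell-like cells. Its 2.02-fold value in pregranulosa-like cells fell short with TMM, at a ratio of 0.567.

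**Figure D3:**
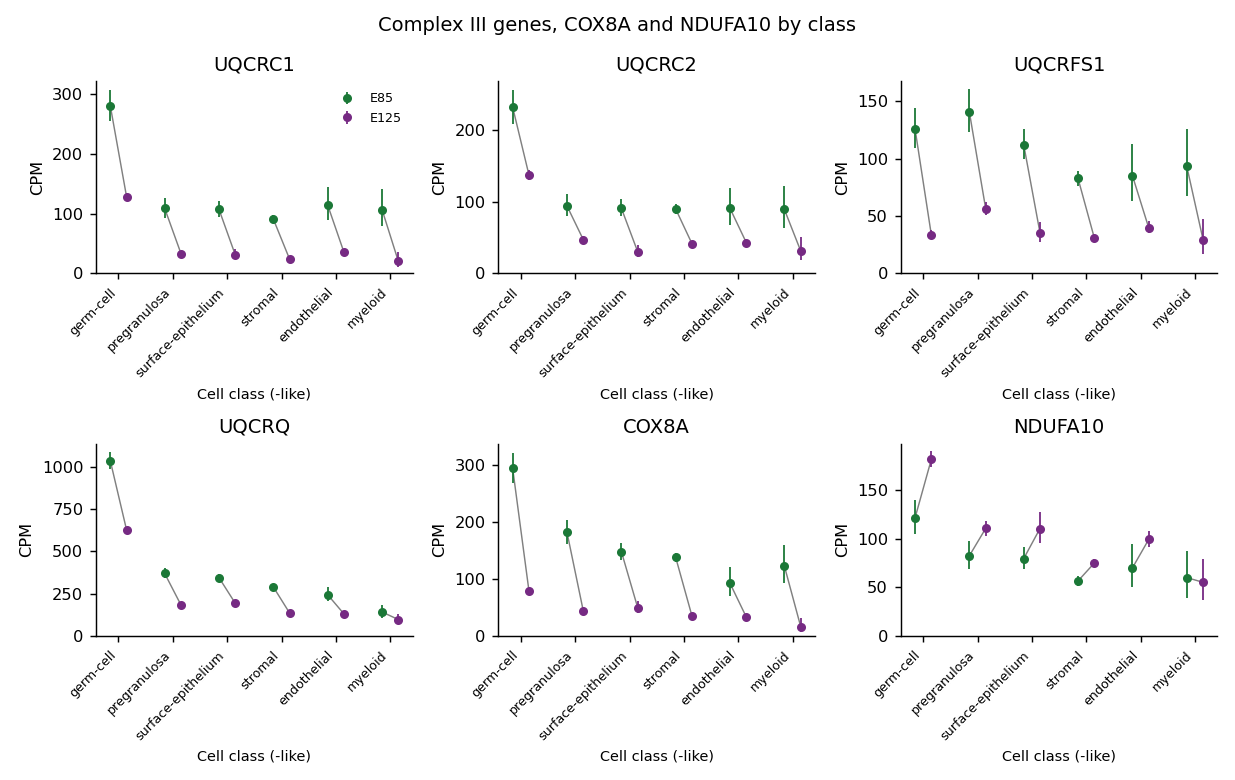
CPM of the 4 complex III members, COX8A and NDUFA10 in the 6 compared classes at E85 (green) and E125 (purple), with exact Poisson 95% intervals and grey lines joining the stages of a class. The complex III genes and COX8A are lower at E125 in each class, UQCRC1 from 281 to 128 CPM in germ-cell-like cells, whereas NDUFA10 is higher at E125 in all but myeloid-like cells.

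Complex IV, cytochrome c oxidase, had a summed ratio between 0.572 and 0.674 in the 6 classes. COX8A, a small subunit, was lower at E125 in every class. Its CPM at E85 and E125 was 293 and 78.9 in germ-cell-like, 181 and 43.7 in pregranulosa-like, 148 and 49.9 in surface-epithelium-like, 138 and 34.9 in stromal-like, 92.1 and 33.1 in endothelial-like and 122 and 16.6 in myeloid-like cells. It was 2.79-fold (2.02 to 3.79) to 7.39-fold lower (lower bound 3.63), the extreme resting on 55 and 9 UMIs in myeloid-like cells.

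COX5B and COX6B1, which are common to all tissues, were lower by less. COX5B was at 1041 and 687 CPM in germ-cell-like and 472 and 345 CPM in stromal-like cells, and its ratios ran from 0.589 to 0.756. COX6B1 was at 422 and 267 CPM in germ-cell-like cells, with ratios from 0.562 to 0.658. COX7A2L, which helps complexes III and IV to associate, was at 48.4 and 12.7 CPM in germ-cell-like cells, 3.80-fold lower (2.83 to 5.06), and 3.26-fold lower (2.27 to 4.73) in stromal-like cells, the only other class where it was measured.

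Tissue-restricted paralogs of complex IV had patterns of their own. COX7A1, known from heart and skeletal muscle, was at 23.9 CPM (14 UMIs) in endothelial-like cells at E85 and 41.3 CPM at E125, a ratio of 1.73 with an interval of 1.01 to 3.21. In the other 5 classes its ratio was between 0.617 and 0.860, the latter in germ-cell-like cells, where TMM turned it to 1.03. COX6B2, known from testis, was highest in surface-epithelium-like cells at 19.8 CPM (51 UMIs) and 16.3 CPM (29 UMIs). Pregranulosa-like cells had 11.4 and 3.87 CPM, and stromal-like cells had 2.15 and 1.28 CPM. COX6A2, a muscle form, gave at most 1 UMI in each of the 6 compared classes at both stages, and 6 UMIs (13.7 CPM) in lymphoid-like cells at E125.

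Complex V, ATP synthase, had a summed ratio from 0.560 in stromal-like to 0.796 in germ-cell-like cells, and every member measured in a class was below 1 there, except that TMM turned ATP5MC3 to 1.04 in germ-cell-like cells. ATP5F1B, the catalytic beta subunit, was at 293 and 138 CPM in stromal-like cells, 2.12-fold lower (2.00 to 2.25), the only 2-fold call in complex V. ATP5MC3, which encodes a subunit of the rotating ring and has close paralogs, was at 1038 and 896 CPM in germ-cell-like and 706 and 418 CPM in stromal-like cells. ATP5PB, part of the stalk, was at 599 and 460 CPM in germ-cell-like and 502 and 292 CPM in stromal-like cells. ATP5F1C, the central shaft, was at 350 and 262 CPM in germ-cell-like and 330 and 178 CPM in stromal-like cells. ATP5F1D was at or below 5.51 CPM in every class and was measured in stromal-like cells alone. ATP5IF1, which blocks ATP hydrolysis when the proton gradient fails, was at 849 and 742 CPM in germ-cell-like and 851 and 441 CPM in pregranulosa-like cells. By share of UMIs the classes thus lay together at E85 and apart at E125. At E85 this depends on the scaling, as TMM across classes gave factors of 1.25 for germ-cell-like and 0.973 for pregranulosa-like cells. A larger factor lowers a level. The germ-cell-like ratio of ATP5IF1, 0.874, became 1.05 with TMM.

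The comparison of cell classes within a stage asked which members were highest in germ-cell-like cells. Each germ-cell-like level was divided by the median of the other 5 classes, with 3 UMIs as a floor. At E85, 17 of 48 members were 2-fold higher (28.7% of all measured features) and 2 were lower (26.6%). At E125, 25 of 47 were higher (30.1%) and 2 were lower (30.2%). At E125 the share of higher members was thus above that of all features, and at E85 it was closer to it. The median fold of members was 1.54 and 2.04, against 1.08 and 0.963 over all features. Germ-cell-like cells were the highest of the 6 classes for 34 of 48 members at E85 and 35 of 47 at E125, where 36.4% and 30.0% of all features were highest there. With TMM across the classes of a library, 9 of 48 members were higher at E85 (21.4% of all features) and 5 lower. At E125, 27 of 47 were then higher (31.7%) and 1 lower. The share of higher members at E85 was thus not above that of all features with TMM. With DESeq2's size factors 13 were higher (24.4% of all features) and 4 lower at E85, so the E85 counts depend on the scaling.

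**Figure D4:**
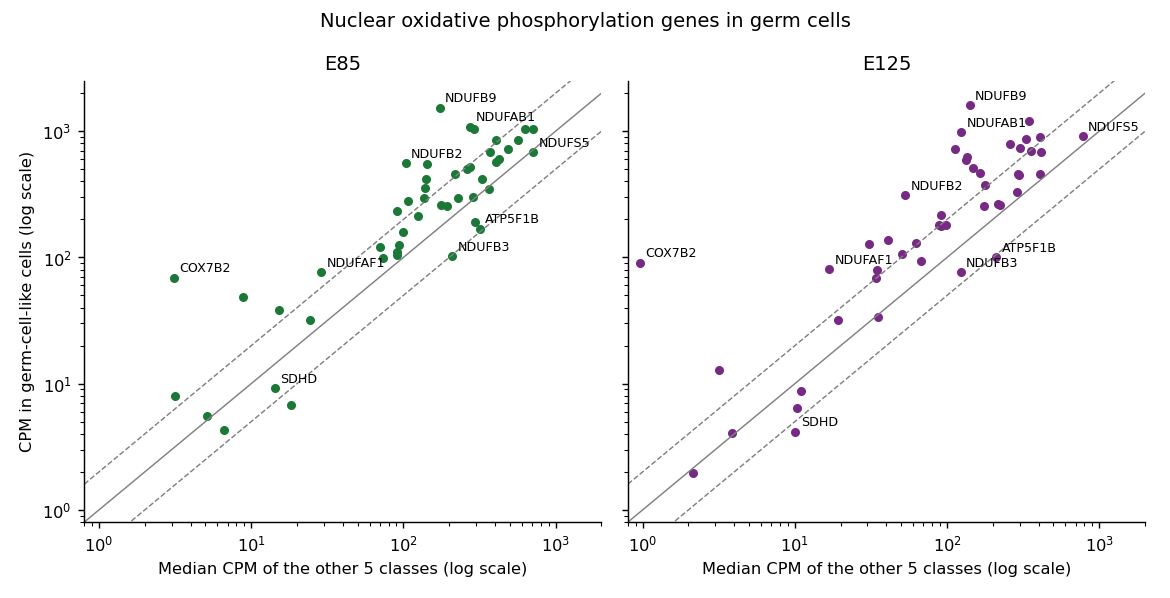
CPM of each measured member in germ-cell-like cells (vertical axis) against the median CPM of the other 5 compared classes (horizontal axis), at E85 and E125, both axes logarithmic. The solid line marks equality and dashed lines 2-fold; NDUFB9 is at 1540 and 1614 CPM, far above the line, and COX7B2 at 69.2 and 90.6 CPM, where the other classes hold a few CPM or less.

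Of 47 members measured at both stages, 15 were 2-fold higher in germ-cell-like cells at both, or 31.9%, against 20.6% of all features. They were NDUFB9, NDUFAB1, NDUFS3, NDUFB2, NDUFB10, NDUFB4, NDUFS7 and NDUFV1 of complex I, UQCRC1, UQCRC2 and UQCRQ of complex III, COX7A2L, COX7B2 and COX8A of complex IV, and the assembly factor NDUFAF1. No member was 2-fold lower at both stages (20.6% of all features). With TMM across classes 9 of the 15 were still higher at both stages, 19.1% of members against 17.6% of all features. COX8A, NDUFB10, NDUFB4, NDUFS7, NDUFAF1 and UQCRC2 then fell under 2-fold at E85.

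NDUFB9, an accessory subunit of the membrane arm, was at 1540 CPM at E85 and 1614 CPM at E125 in germ-cell-like cells. In the other 5 classes it was between 136 and 241 CPM at E85 and between 107 and 225 CPM at E125. The folds over the median class were 8.91 and 11.4, and NDUFB9 alone made up 8.35% and 9.26% of all member UMIs of germ-cell-like cells, against 1.53% to 2.60% in other classes. Thinned to 2000 UMIs per cell, 91.7% of 36 germ-cell-like cells at E85 and 92.9% of 98 at E125 had an NDUFB9 UMI, with 13 and 31 shallower cells left out. In the other classes 17.3% to 39.4% of thinned cells had one, and unthinned 87.8% and 90.7% of germ-cell-like cells did.

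NDUFAB1, the mitochondrial acyl carrier protein that is also part of complex I, was at 1090 and 981 CPM in germ-cell-like cells, 3.98- and 7.94-fold over the median other class. NDUFS3, a core subunit, was at 550 and 720 CPM, 3.87- and 6.36-fold over it. NDUFB2 was at 557 and 311 CPM, 5.39- and 5.85-fold over it. NDUFV1, a core subunit that binds NADH, was at 420 and 516 CPM, against medians of 140 and 147 CPM, and NDUFB4 was 2.11- and 2.82-fold over it, with 1.49-fold at E85 under TMM. NDUFAF1 was at 76.6 and 80.8 CPM, 2.65- and 4.80-fold over it, although under 2-fold at E85 with TMM.

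COX7B2, a paralog of COX7B, had a higher level in germ-cell-like cells than in each of the other 5 compared classes. It gave 113 UMIs (69.2 CPM) at E85 and 917 UMIs (90.6 CPM) at E125 there, a ratio of 1.31 (1.08 to 1.61). The other 5 classes gave 0 to 17 UMIs at E85 and 0 to 15 UMIs at E125, or at most 3.68 CPM. The 17 and 15 UMIs of stromal-like cells came from 2704 and 4801 cells. Thinned, 19.4% and 13.3% of germ-cell-like cells had a UMI, against 0.847% or less of cells in each other class, where the median germ-cell-like cell had 8568 and 52865 UMIs and unthinned shares were 55.1% and 58.1%. The fold over the median other class, 22.3 at E85 and 94.7 at E125, rests on the few UMIs of those classes.

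Some members went the other way. ATP5F1B was at 168 and 100 CPM in germ-cell-like cells, the lowest of the 6 classes at both stages, and 2.10-fold under the median other class at E125, a call lost with TMM across classes. SDHD was 2.43-fold under it at E125. At E85 NDUFB3, an accessory subunit of complex I, was 2.05-fold under it and NDUFAF7 2.71-fold, on a germ-cell-like level of 6.74 CPM. NDUFS4, an accessory subunit, was highest in pregranulosa-like cells, at 521 and 522 CPM, against 189 and 255 CPM in germ-cell-like cells. A 3' kit gives no level per length, so each gene was compared only with itself across classes and stages.

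Other lists gave a setting for the stage comparison, by their medians beside those of all measured features. Of 57 genes of the mitochondrial ribosome, 14 of 49 measured in germ-cell-like cells were 2-fold lower (18.3% of all measured features) and 1 higher (19.8%). In stromal-like cells 16 of 54 were lower (10.9%) and 0 higher (18.1%). The median log2 ratios were -0.25 and -0.79, against -0.07 and -0.01 over all measured features. Over the 6 classes the medians of all measured features ran from -0.07 to 0.17. Citrate cycle genes had medians between -0.60 and -0.37, and SUCLG1 was lower in each class. The mitochondrially encoded genes had a median of -1.50 in germ-cell-like cells with 8 of 11 lower (18.3% of all measured features). In pregranulosa-like cells they had -0.95 with 6 of 12 lower (10.5%), and in surface-epithelium-like cells 0.09 with 0 of 12 (10.5%). Glycolysis genes ran from -0.48 to 0.27 and cytosolic ribosome genes from -0.03 to 0.28. Genes for electron carriers and assembly factors were mixed, with a median of -0.66 in stromal-like cells. There 3 of 23 were higher (CYC1, SURF1 and TTC19) and 4 lower, where 18.1% and 10.9% of all measured features were. Regulators of mitochondrial biogenesis had medians from -0.44 in germ-cell-like to 0.26 in endothelial-like cells, with only YY1 measured in myeloid-like cells. In germ-cell-like cells 1 of 14 was higher, ESRRA (19.8% of all measured features), and 3 were lower, GABPA, TFAM and TFB2M (18.3%). ESRRA was also higher in pregranulosa-like, stromal-like and endothelial-like cells, and YY1 in every somatic class compared.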

How the data were processed

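The authors deposited whole-number UMI counts for each gene and barcode, not normalized. The kit was a 10x 3' version, per the labels' protocols. Cell Ranger 3.1 stands in the submitters' processing notes and 6.0.0 in the matrices, per the file headers; for build and annotation, not given in the sources used here. Members, lists and markers were chosen with earlier results of these data known, and the rule turning markers into names came from an earlier account that set it after seeing clusters.

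Barcodes with under 500 genes or over 20% of UMIs from the 13 mitochondrially encoded genes were dropped (425 at E85, 809 at E125). Scrublet's own threshold called 2 and 0 doublets and had not worked, so the highest scores, 0.8% per 1000 barcodes, were removed (155 and 557), and some doublets may remain. Cells scaled to 10000 UMIs and logged were clustered together in scanpy 1.11.5 (2000 variable genes chosen per library, 30 components, 15 neighbours, Leiden resolution 1) without integration. Of the members, 1 was a variable gene. This clustering was picked among several because its class sizes came nearest those of the earlier account, without looking at member values. The first one tried, with variable genes pooled, is an added alternative, with 74 germ-cell-like cells at E85 and 131 at E125. In each library a marker's CPM was divided by its highest over clusters, and markers under 20 CPM were ignored. A cluster of 15 or more cells got the best-scoring class, given a mean of 0.3 and 3 markers at 0.25.

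For each class and library UMIs were added up and set against their total. A gene was measured with 50 UMIs over both libraries, counts under 3 were set to a floor of 3, and a call was 2-fold. Exact Poisson, binomial and conditional 95% intervals cover counting error only. With 1 library per stage nothing was tested. The rule for named members took the 3 highest and 3 lowest past 2-fold in each class among those of 50 CPM or more, those past 2-fold in every class, the 8 with the widest range over classes, the paralog sets, the 2 with the highest mean CPM per complex and assembly group, and SDHC, SDHD and ATP5IF1. Other members were named after their values were seen. On simulated data a 4-fold higher feature was recovered in 100% of cases in each class, and a 4-fold lower one in 57% (myeloid-like cells) to 87% (stromal-like and surface-epithelium-like cells). Scaling alternatives used edgeR 4.0.16 and DESeq2 1.42.0 in R 4.3.3. The 7 alternatives added after seeing the data are named in the closing section. The values of 1 member are not reported here, although it stays in all counts and sums.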

Additional observations from a re-analysis of the deposited data

How the results depend on the processing

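With 1 library per stage, leaving out a replicate was not possible. No paired analysis was possible because each stage had 1 library and the labels carry no replicate numbers. Of 264 summary values under alternatives, 212 stayed within the limits set for them, 50 moved and 2 reversed. Single members were scored only where named for their lowest ratios, for passing 2-fold in every class or for their range over classes. Of these 498 values, 470 stayed, 28 moved and 0 reversed. Being chosen for extreme values, they had little room to reverse. Members named by the other parts of the rule were not scored, and ATP5IF1, ATP5MC3, COX7A1 and NDUFS5 among them turned direction with TMM in some classes. The 2-fold lower calls of scored members stayed at or under a ratio of 0.5 in 263 of 274 values. That count leaves out the lower calls of other members, of which those of NDUFA1, NDUFA5, NDUFB3 and SDHD, among others, were lost with TMM in 1 class or more.

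With TMM the summed ratio of E125 to E85 was 1.13 in germ-cell-like cells, a reversal, and 0.837 in pregranulosa-like cells. Surface-epithelium-like cells had 0.797, stromal-like cells 0.720, endothelial-like cells 0.801 and myeloid-like cells 0.614. In that setting 1 member was 2-fold higher in germ-cell-like cells (2253 of 8988 features) and 5 were lower in endothelial-like cells (6.53% of features). With DESeq2's size factors the germ-cell-like ratio also reversed, to 1.13 (1.125 before rounding), with 1 member higher (2226 of 8988 features). The ratio was 0.850, 0.719, 0.801 and 0.653 in pregranulosa-like, stromal-like, endothelial-like and myeloid-like cells. Without mitochondrially encoded and ribosomal protein genes in the total it was 0.926 in germ-cell-like cells. As a mean over cells, 4 members were higher (2957 of 8988 features) and 10 lower (18.2% of features) in germ-cell-like cells. In surface-epithelium-like cells 21 were lower (14.0%), and in endothelial-like cells 1 was higher (1428 of 6996 features). The ratio was then 0.717, 0.533 and 0.704 in pregranulosa-like, surface-epithelium-like and stromal-like cells. With no minimum, 10 of 48 members were lower in pregranulosa-like cells (23.6% of features) and 2 of 44 higher in myeloid-like cells (1319 of 7310 features).

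The stricter cell filter left 24 germ-cell-like cells at E85 and 23 pregranulosa-like cells at E125. With it the ratio was 0.930 in germ-cell-like and 0.822 in pregranulosa-like cells (1 member higher, and 485 of 3753 features). The ratio was 0.895 in surface-epithelium-like and 0.686 in stromal-like cells. At resolution 2 it was 0.756 in pregranulosa-like and 0.889 in surface-epithelium-like cells. With each library clustered separately it was 0.968, 0.770 and 0.879 in germ-cell-like, pregranulosa-like and surface-epithelium-like cells. The cause of these shifts was not tested.

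The other alternatives were chosen after seeing the data. With variable genes pooled over libraries the ratio was 0.823 in pregranulosa-like and 0.604 in surface-epithelium-like cells, where 17 members were lower (12.3% of features). With the stricter filter applied to the same classes it was 0.930, 0.867 and 0.686 in germ-cell-like, surface-epithelium-like and stromal-like cells. Without the KRT17-led cluster it was 0.876 in surface-epithelium-like cells. Without the 10 largest E85 germ-cell-like droplets it was 0.966 in germ-cell-like cells, with 1 member higher (1835 of 8672 features). TMM across the classes of a library left 9 members higher in germ-cell-like cells than in the median other class at E85 (21.4% of all features). It gave 5 lower at E85 and 1 at E125. DESeq2's size factors across classes gave 4 and 1 lower. That E85 count of lower members, 2 as reported, was 1 at resolution 2, with separate clustering, with pooled variable genes and without the KRT17-led cluster. Restricting germ-cell-like droplets to 20000 or more UMIs moved no summary past its limit. Those droplets held most of the UMIs of the class, so that restriction could hardly move a sum. Depth limits the myeloid-like values most, where 37 members were measured.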

Other observations

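Some groups of cells belonged to no class compared. At E85, 220 cells led by HBAI, CCL19 and S100A13 stayed unnamed, and members took 1.47% of their UMIs, above all classes except germ-cell-like cells. Mitochondrially encoded genes took 8.60% there. Their COX7B2 level was 13.3 CPM on 13 UMIs. At E125, 133 unnamed cells led by ERICH3, CPXM2 and NMB had 0.823% and a COX6B2 level of 17.1 CPM, close to the 16.3 CPM of surface-epithelium-like cells. A cluster led by KRT17 at E85 (70 cells in the surface-epithelium-like class) had 1.58% member UMIs and 1.21% mitochondrially encoded UMIs. The other E85 cluster of that class had 0.988% and 9.69%. The KRT17-led cluster had ZP4 among its leading genes, as germ-cell-like cells did, and what its cells are was not tested. Its 23 E125 cells, in the pregranulosa-like class, had 1.13% and 0.337%. Without that cluster the summed ratio was 0.876 in surface-epithelium-like cells.

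The 10 largest E85 germ-cell-like droplets held 69.3% of that class's UMIs at E85, against 23.7% for the 10 largest at E125. Among droplets of 20000 or more UMIs, 45 members were measured, 0 were 2-fold higher and 6 were lower. Of 8921 features measured there, 1690 were higher and 1634 lower. As these droplets held most of the UMIs of the class, this largely repeats the class result.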
